A study of Mus musculus with 8 samples.

Results

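The Prss genes encode trypsin-like serine proteases, and 39 of the 21900 protein-coding genes in the mouse RefSeq annotation carry the symbol Prss followed by a number. They were taken by that symbol, from the GRCm38.p6 table, whose primary coordinates are those of mm10. Each gene was described by the H2A.Z intervals within 1 kb of either of its ends, called boundary peaks here. H2A.Z, a variant of histone H2A, is exchanged into nucleosomes by the SRCAP complex, of which ZNHIT1 is a subunit. The study mapped H2A.Z by chromatin immunoprecipitation and sequencing in dissociated mouse testes at postnatal day 14. The knockout mice are labelled Znhit1-CKO (Znhit1-sKO in the protocol), and the others Control. Each genotype has 2 immunoprecipitates and 2 inputs, from independent biological replicates per the labels. The driver of the deletion, the alleles of the control mice and the strain are not given in the labels. Whole testes were used, so fewer cells of a type and less H2A.Z per cell cannot be told apart.

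Trypsin-like proteases cut after basic residues with a catalytic triad of histidine, aspartate and serine, and most are made as inactive precursors. In the testis a set of them is made by meiotic and later germ cells, and several reach the acrosome or the sperm surface, where they act in sperm maturation and in passage to the egg. At postnatal day 14 the first wave of spermatocytes has reached the pachytene stage of meiotic prophase. Of the 39 genes, 27 lie in 7 groups in which neighbours are at most 100 kb apart, and 13 of the 16 testis genes named below are among them. No RNA was used here, so the word testis below stands for what is known of a gene and not for a measurement, and the tissue label could not be checked against expression. At the germ cell genes, Ddx4 had a widest boundary peak of 291 bp in Znhit1-CKO and 1186 bp in Control, Dazl 1188 bp in Znhit1-CKO and 1264 bp in Control, and Sycp3 none in Znhit1-CKO and 944 bp in Control. Somatic marker genes had such peaks too. Among Sertoli cell genes, the widths were 296 bp in Znhit1-CKO and 1757 bp in Control at Wt1, 536 bp in Znhit1-CKO and 1331 bp in Control at Sox9, and 1080 bp in Znhit1-CKO and 993 bp in Control at Amh. Among peritubular genes they were 520 bp in Znhit1-CKO and 1218 bp in Control at Acta2, and 1213 bp in Znhit1-CKO and 985 bp in Control at Myh11. The Leydig cell genes Cyp17a1, Hsd3b1 and Insl3 and the macrophage genes Adgre1 and Csf1r had none in either list. A peak is not expression, and the part of cell makeup in the results below was not tested.

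For each genotype the authors gave a single peak list, with a further list of regions that differ between them. The Znhit1-CKO list holds 31156 peaks with a median width of 667 bp, and the Control list 48752 peaks with a median width of 742 bp. The 24367 differential regions carry no sign, and 24362 of them are exactly 400 bp wide. With 1 list per genotype there is no replicate spread, so nothing below was tested, and a peak's absence from a list says only that it did not pass the authors' threshold. Depth cannot be read from the files. The family was selected with earlier results on these same lists known, so its counts are a description and are printed beside those of all genes.

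Fewer Prss genes had an H2A.Z peak at an end in Znhit1-CKO testes. There were 8 such genes in the Znhit1-CKO list and 20 in the Control list. The corresponding shares were 20.5% of the Prss genes in Znhit1-CKO and 51.3% in Control, where all protein-coding genes stood at 60.4% in Znhit1-CKO and 67.6% in Control. Of the 20 genes with a Control peak, 12 had no Znhit1-CKO boundary peak, or 60%, against 11.5% of all 14815 genes with a Control peak. In 10 of the 20 (50%) no Znhit1-CKO peak overlapped a Control boundary peak, against 11.0% of all genes with a Control peak. No Prss gene had a peak in the Znhit1-CKO list alone, and only 123 of all 21900 protein-coding genes did. A differential region lay at an end of 15 Prss genes (42.6% of all genes had one), each of them among the 20 with a Control peak, or 75% of these against 62.8% of all genes with a Control peak. Of the 12 genes with a Control peak alone, 9 had a differential region, against 58.6% of all such genes. Since these lists were used in choosing the family, nothing is read from the shares. Just inside the 1 kb limit lay the Control peaks of Prss56 at 752 bp and Prss46 at 948 bp, and just outside it the Znhit1-CKO peak of Prss56 at 1085 bp and the Control peaks of Prss58 at 1310 bp and Prss36 at 1346 bp.

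Testis genes made up 8 of those 12. From knowledge of the family, 17 genes were listed as made mainly in the testis, of which Prss59 is not in the gene table used, which leaves 16. The list was written with earlier results on these data known, so nothing is read from the split. Boundary peaks were present at 2 of the 16 in Znhit1-CKO and at 10 in Control, so 8 of 10 had no Znhit1-CKO boundary peak. The 8 include Prss46, which has a Control peak only through its neighbour Prss50. Among the other 23 Prss genes the numbers were 6 in Znhit1-CKO and 10 in Control, with 4 of 10 lacking a Znhit1-CKO peak. The testis genes had widest Control peaks of 405 to 1357 bp, with a median of 1064 bp, narrower than the median of 1429 bp over all genes with a Control peak. Of 6166 genes whose widest Control peak lay in that same range, 20.4% had no Znhit1-CKO boundary peak. A differential region was present at 9 of the 10 testis genes with a Control peak and at 6 of the 10 others.

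**Figure D1:**
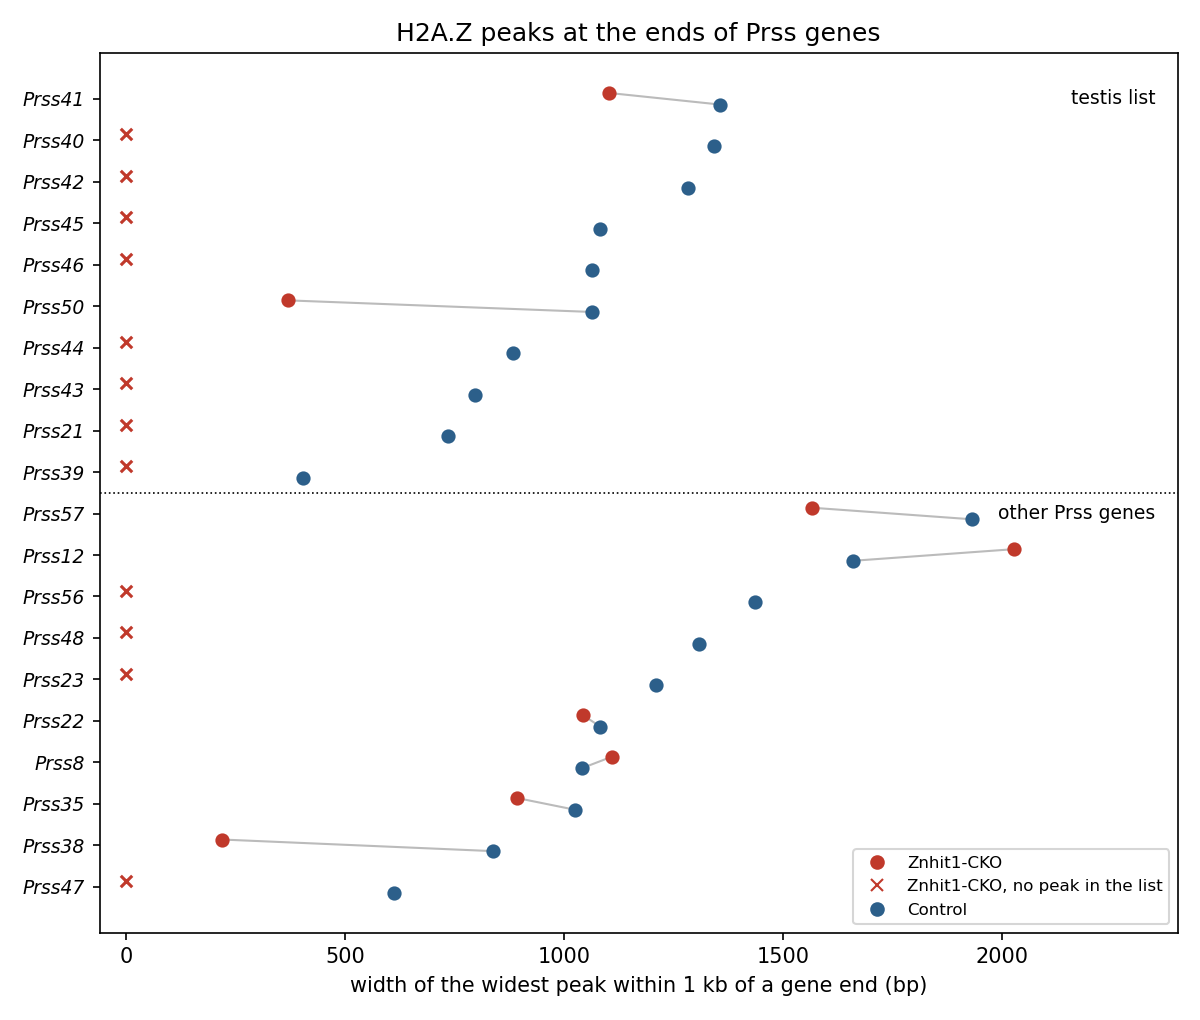
Width in bp of the widest H2A.Z peak within 1 kb of an end, for the 20 Prss genes with a Control peak, with Znhit1-CKO in red and Control in blue. A cross at 0 marks a gene with no Znhit1-CKO boundary peak, which is the case for 8 of 10 testis genes and 4 of 10 others.

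The promoters of 6 genes show sequences on which Control peaks lay. The 6 are Prss12 and 5 testis genes with a Control peak over the promoter, those with the widest Control boundary peaks. Prss12 has the widest Control peak among the genes outside the testis list that have a promoter record. The 250 bases before the start of transcription are printed 5′ to 3′ (RefSeq, GRCm38.p6). Every CpG, the site of DNA methylation, is in capitals. They show both outcomes: at Prss42, Prss45 and Prss40 no Znhit1-CKO peak overlapped the Control peak, at Prss50 a narrow one did, and Prss41 and Prss12 had a wide one. The narrow peak at Prss50 began after the start of transcription, so it lies outside the printed bases.
Prss41, chr17:23844157-23844406, minus strand: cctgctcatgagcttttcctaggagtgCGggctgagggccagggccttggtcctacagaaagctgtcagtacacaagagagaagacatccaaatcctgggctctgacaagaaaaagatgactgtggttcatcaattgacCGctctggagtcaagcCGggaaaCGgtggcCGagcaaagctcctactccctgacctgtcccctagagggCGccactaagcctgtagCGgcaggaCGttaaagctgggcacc
Prss40, chr1:34560944-34561193, minus strand: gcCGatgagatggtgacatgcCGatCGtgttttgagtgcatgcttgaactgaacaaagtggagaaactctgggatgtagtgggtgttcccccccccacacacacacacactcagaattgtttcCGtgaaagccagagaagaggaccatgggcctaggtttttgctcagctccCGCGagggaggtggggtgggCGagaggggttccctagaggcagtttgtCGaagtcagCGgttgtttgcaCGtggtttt
Prss42, chr9:110797935-110798184, plus strand: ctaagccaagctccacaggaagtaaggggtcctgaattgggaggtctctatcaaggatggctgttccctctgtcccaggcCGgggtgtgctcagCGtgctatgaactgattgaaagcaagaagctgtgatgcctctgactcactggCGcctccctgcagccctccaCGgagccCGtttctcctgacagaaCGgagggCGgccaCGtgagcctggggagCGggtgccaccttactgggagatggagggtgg
Prss45, chr9:110834338-110834587, plus strand: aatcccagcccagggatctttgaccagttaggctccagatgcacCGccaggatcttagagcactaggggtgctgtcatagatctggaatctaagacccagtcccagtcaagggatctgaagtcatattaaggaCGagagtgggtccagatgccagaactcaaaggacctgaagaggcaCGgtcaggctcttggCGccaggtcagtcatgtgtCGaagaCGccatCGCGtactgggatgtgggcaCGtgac
Prss50, chr9:110857714-110857963, plus strand: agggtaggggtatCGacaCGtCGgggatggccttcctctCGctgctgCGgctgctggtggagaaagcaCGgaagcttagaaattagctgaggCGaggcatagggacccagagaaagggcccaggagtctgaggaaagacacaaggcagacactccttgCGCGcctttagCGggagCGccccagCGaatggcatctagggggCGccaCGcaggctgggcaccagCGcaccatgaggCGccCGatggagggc
Prss12, chr3:123446663-123446912, plus strand: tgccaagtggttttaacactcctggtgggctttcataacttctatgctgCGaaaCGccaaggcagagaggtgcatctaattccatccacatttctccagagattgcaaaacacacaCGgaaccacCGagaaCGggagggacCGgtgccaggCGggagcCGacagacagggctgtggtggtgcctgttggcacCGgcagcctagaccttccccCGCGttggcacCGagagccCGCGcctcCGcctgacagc
These stretches hold 8 CpG at Prss41, 10 at Prss40, 9 at Prss42, 9 at Prss45, 17 at Prss50 and 15 at Prss12. Prss41, with a wide peak in both lists, has the fewest of the 6, and Prss50 has the most.

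On chromosome 9, 6 adjacent testis genes form a group of their own. Prss42, Prss44, Prss43, Prss45, Prss46 and Prss50 lie within 67.4 kb (110797248 to 110864629) with no other protein-coding gene between them. The span held 1 Znhit1-CKO peak and 5 Control peaks, and each of the 5 had a differential region over it. Of these Control peaks 4 had no Znhit1-CKO counterpart. Prss42 and Prss43, known as TESSP2 and TESSP3, act in meiotic germ cells of mice. At Prss42 the Control peak was 1282 bp wide (110797366 to 110798647) and covered the start of transcription. The nearest Znhit1-CKO peak lay 15.2 kb from it. At Prss43 the Control peak was 798 bp wide (110826981 to 110827778), with the nearest Znhit1-CKO peak 30.2 kb away. Both genes were thus marked in Control and had no peak at either end in Znhit1-CKO.

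Prss44 and Prss45 (TESSP4 and TESSP5) showed the same picture. The Control peak at Prss44 was 883 bp wide (110813781 to 110814663), and the nearest Znhit1-CKO peak lay 31.6 kb away. At Prss45 it was 1082 bp wide (110834204 to 110835285), with the nearest Znhit1-CKO peak 22.7 kb away. The differential region at Prss45 began 221 bp after the start of transcription, whereas that at Prss42 covered the start.

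Prss50 and Prss46 shared 1 Control peak. Prss50 (TSP50) encodes a protease in which threonine takes the place of the catalytic serine. Its peak was 369 bp wide in Znhit1-CKO (110858012 to 110858380) and 1064 bp wide in Control (110857470 to 110858533), a log2 width ratio of -1.53. The Znhit1-CKO peak began 48 bp after the start of Prss50, so the remaining interval no longer covered the start itself. Prss46 (TESSP6) had no peak at its own start in either list. Its upper end lies 948 bp from the Control peak of Prss50 and 1490 bp from the Znhit1-CKO peak, so it counts as marked in Control and unmarked in Znhit1-CKO only through its neighbour and only because of the 1 kb limit.

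Peaks on both sides of the chromosome 9 group were present in both lists. Below Prss42 a peak was 1023 bp wide in Znhit1-CKO (110781160 to 110782182) and 1527 bp wide in Control (110780871 to 110782397). Above Prss50, inside Tmie, a peak was 342 bp wide in Znhit1-CKO and 792 bp wide in Control. At the upper end of Tmie, next to Als2cl, the widths were 917 bp in Znhit1-CKO and 1589 bp in Control. A differential region lay on each of these flanking peaks, all narrower in Znhit1-CKO, yet each was still called, unlike the 4 inside the group.

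**Figure D2:**
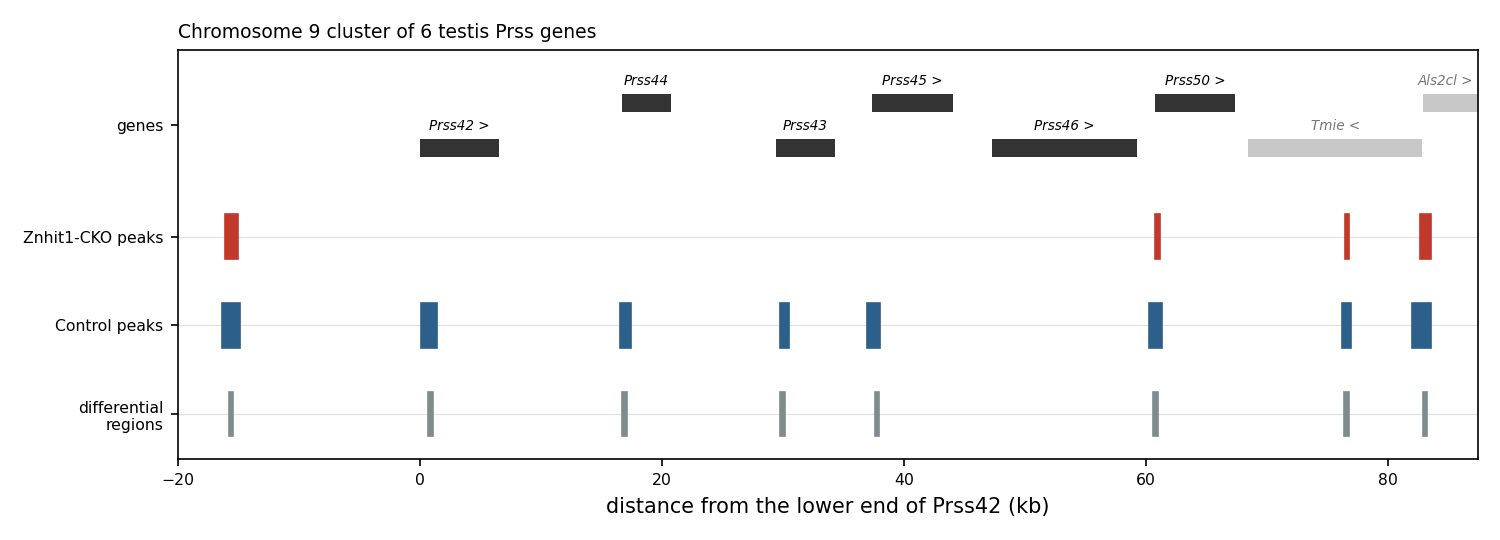
Map of the chromosome 9 group, with the distance in kb from the lower end of Prss42 on the axis and rows for genes, Znhit1-CKO peaks, Control peaks and differential regions (arrows give the direction of transcription where the promoter table has it). Inside the group lie 5 Control peaks and 1 Znhit1-CKO peak, which overlaps only 1 of them, whereas the flanking Control peaks each have a Znhit1-CKO counterpart.

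On chromosome 1 the pair Prss39 and Prss40 had no Znhit1-CKO peak at all. They encode TESP1 and TESP2, proteases of the sperm acrosome. Their span of 62.6 kb (34498412 to 34561004) held 0 Znhit1-CKO peaks and 5 Control peaks, 3 of which had a differential region. Below the span a Control peak of 1104 bp had a Znhit1-CKO peak of 401 bp over it. Above the span a Control peak of 1185 bp at an end of Amer3 had none. The Control peak at the start of Prss39 was only 405 bp wide (34498133 to 34498537), in the lowest 2.37% of widths among genes with a Control peak. It also lies at an end of the lncRNA gene 4930568A12Rik. Prss40 had a Control peak of 826 bp over its start (34560509 to 34561334), with a differential region. A wider one of 1343 bp at its other end (34536263 to 34537605) had no differential region and lies at an end of Cfc1 and of the pseudogene Gm28419 too. The nearest Znhit1-CKO peak was 12.1 kb from the Control peak of Prss39 and, at Prss40, 74.5 kb from the peak over the start and 50.3 kb from the one at the other end.

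The chromosome 17 group of 7 genes was mixed. It spans 213 kb from Prss33 to Prss27 (23833338 to 24045949) and held 6 Znhit1-CKO peaks and 11 Control peaks. Prss21 encodes testisin, a protease anchored to the sperm surface. Its Control peak was 735 bp wide (23867634 to 23868368) and had a differential region, and the nearest Znhit1-CKO peak lay 15.6 kb away. Prss41 (TESSP1) had a peak in both lists: 1103 bp in Znhit1-CKO (23843352 to 23844454) and 1357 bp in Control (23843245 to 23844601). That is a log2 ratio of -0.30, close to the median of -0.27 over all 22040 peaks paired 1 to 1 between the lists. A differential region lay on it as well. Prss22, an epithelial tryptase gene, had peaks of nearly equal width, 1043 bp in Znhit1-CKO and 1083 bp in Control, and no differential region. Prss33, Prss32, Prss30 and Prss27 had no boundary peak in either list.

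No boundary peak was called in either list at 6 of the 16 testis genes, beside 6962 of all 21900 protein-coding genes. Prss55, Prss51 and Prss52 lie side by side on chromosome 14 (64075435 to 64113751). Prss55 is needed in mice for sperm to enter the oviduct. In their span of 38.3 kb stood 1 peak, 543 bp wide in Znhit1-CKO and 490 bp wide in Control, away from the ends of all 3 genes and without a differential region. Prss37 is likewise needed for sperm to reach the egg in mice. On chromosome 6, Prss37 had its nearest peak 42.8 kb away in Znhit1-CKO and 42.7 kb away in Control. Prss58 had a Control peak 1.31 kb away, just outside the limit, and its nearest Znhit1-CKO peak 218 kb away. Prss54 had a Control peak of 436 bp inside the gene, with a differential region and no Znhit1-CKO peak.

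Prss genes known from other tissues were split between both outcomes. Prss12 encodes neurotrypsin, a protease of synapses. Its peak was wider in Znhit1-CKO, 2026 bp in Znhit1-CKO (123446465 to 123448490 on chromosome 3) and 1659 bp in Control (123446231 to 123447889), a log2 ratio of 0.29, with no differential region. Prss57, a neutrophil protease gene, had peaks at both ends, of 1566 and 1314 bp in Znhit1-CKO and of 1932 and 1627 bp in Control. The wider of them also lies at an end of Palm. Prss8 (prostasin, an activator of epithelial sodium channels) had 1110 bp in Znhit1-CKO and 1041 bp in Control, and the figure for Prss35 was 893 bp in Znhit1-CKO and 1024 bp in Control. Prss35 (a protease homologue of the ovary) and Prss8 each had a differential region, as did both ends of Prss57.

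Prss38 and Prss47, which were on no list of tissue roles, had a narrow Znhit1-CKO peak or none. The peak at Prss38 was 219 bp wide in Znhit1-CKO (59375687 to 59375905 on chromosome 11) and 838 bp wide in Control (59375115 to 59375952), a log2 ratio of -1.94. The Znhit1-CKO interval ended 34 bp before the start of transcription. An end of the lncRNA gene Gm15755 lies there as well. Prss47 had a Control peak of 611 bp (65052256 to 65052866 on chromosome 13) with a differential region, and its nearest Znhit1-CKO peak was 53.3 kb away.

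The 3 remaining genes without a Znhit1-CKO boundary peak each differ in kind. Prss48 (chromosome 3) had a Control peak of 1309 bp with a differential region, and the nearest Znhit1-CKO peak was 30.4 kb away. At Prss23, a widely expressed gene with 7 annotated starts, the Control peak of 1210 bp over the most upstream start had no Znhit1-CKO peak and no differential region. All the other starts lay under a peak present in both lists, 1128 bp in Znhit1-CKO (89517120 to 89518247 on chromosome 7) and 1098 bp in Control (89517170 to 89518267). Narrow Control peaks of 375 and 355 bp inside Prss23 had a differential region each and no Znhit1-CKO peak. Prss56, a gene of the eye, lacked a boundary peak in Znhit1-CKO only by the limit. Its Control peak of 1435 bp lay 752 bp from the gene's end, and the Znhit1-CKO peak of 549 bp inside it lay 1085 bp from that end. The 2 differential regions at Prss56 lie inside the gene too.

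**Figure D3:**
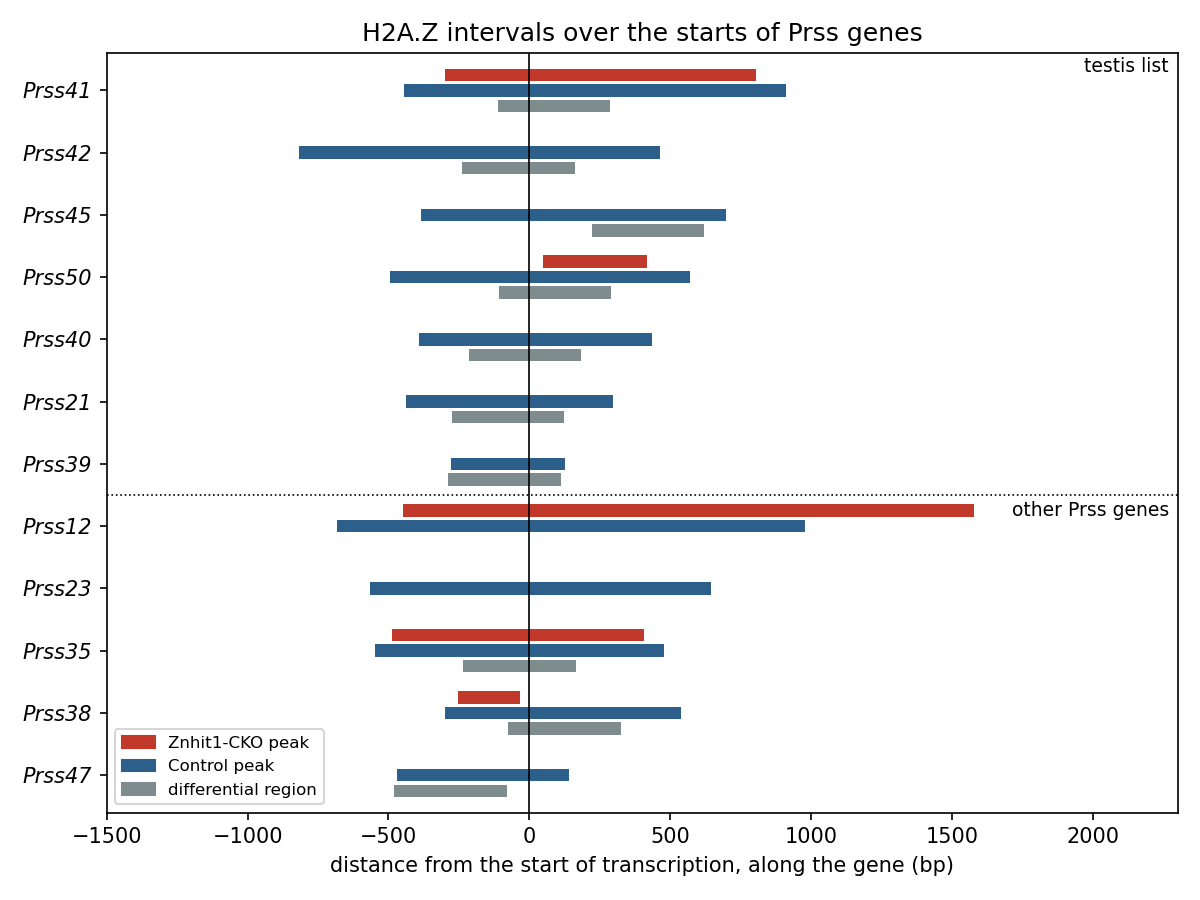
Znhit1-CKO peaks (red), Control peaks (blue) and differential regions (grey) around the start of transcription, in bp along the gene, for the 12 Prss genes with a promoter record and a Control boundary peak over the start. Control peaks cover the start in all 12, and Znhit1-CKO peaks in 3 (Prss41, Prss12 and Prss35).

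Most Control boundary peaks lay on starts where strand was known, with Prss46, Prss56 and the wider peak of Prss40 as exceptions. The promoter table has 29 of the 39 genes (not Prss48, Prss8, Prss44, Prss43, Prss57, Prss16, Prss55, Prss51, Prss52 and Prss22), and in 12 of them a Control boundary peak covered the most upstream start, whereas a Znhit1-CKO peak did so in 3. Over all 17492 genes in that table, a Znhit1-CKO peak covered the start in 52.0% and a Control peak in 61.8%. The 39 genes had 21 distinct Control boundary peaks, of which 10 overlapped a Znhit1-CKO peak and 11 did not. Of the 15147 such peaks of all protein-coding genes, 18.0% overlapped none. Differential regions lay on 8 of the 10 and on 9 of the 11, against 61.1% of all such peaks with a Znhit1-CKO overlap and 53.1% of those without one. Of these 10 pairs, 8 were narrower in Znhit1-CKO, and the median log2 width ratio was -0.30 (79% narrower and -0.27 over all pairs). All 16 differential regions at gene ends lay on a Control peak, and 7 of them also on a Znhit1-CKO peak.

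Inside the genes, away from their ends, lay 12 Control peaks in 8 genes, 7 of them with a differential region and 6 of them overlapping a peak of the Znhit1-CKO list. Of 12573 such Control peaks in all protein-coding genes, 46.5% had a differential region and 39.8% overlapped a Znhit1-CKO peak. Prss36, which encodes polyserase-2, had 2 of them in both lists, and Prss16, a thymus protease gene, had 1 of 1093 bp in Znhit1-CKO and 1359 bp in Control. Those 2 genes and Prss54 had a Control peak inside and none at an end. The other 16 of the 19 genes without a boundary peak had none inside either.

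In 2 groups no peak was called in either list. The pancreatic trypsin genes Prss3, Prss1 and Prss2 (151 kb on chromosome 6) lie among T cell receptor genes, and their nearest Control peaks were 18 to 165 kb away. Prss34, a mast cell and basophil protease gene, and Prss28 and Prss29, which act in the uterus at implantation, span 24.3 kb on chromosome 17 with their nearest Control peaks 12.8 to 33.1 kb away. The polyserase-3 gene Prss53 on chromosome 7 had no boundary peak, although its span with Prss8 and Prss36 held 7 peaks in each list.

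CpG counts of Prss promoters were higher where a Control peak was present. In the window from 250 bases before to 50 after the start, the 12 promoters with a Control peak held 7 to 21 CpG, with a median of 12. The 17 without one held 0 to 9, with a median of 3. Over all 17492 promoters the same order held: a median of 22 CpG with a peak in both lists, 12 with a Control peak alone and 2 with no Control peak. The 5 testis promoters that had a Control peak and no Znhit1-CKO peak all held 11 or 12 CpG. Of the promoters with a Control peak, 7 of 12 Prss promoters had none in Znhit1-CKO, against 11.8% over all genes. Prss50 is not among the 7, as its Znhit1-CKO peak, which begins 48 bp after the start, reaches the edge of the window. In the class of 10 to 19 CpG, 5 of 9 Prss promoters with a Control peak had none in Znhit1-CKO, against 13.0% of 3460 promoters of all genes. The 5 were among 6 testis genes, and the 3 other genes of that class had a peak in both lists. In the class of 5 to 9 CpG, both Prss promoters with a Control peak had none in Znhit1-CKO, against 32.9% of all. They belong to Prss23 and Prss47, neither of which is on the testis list. The family and the testis list were chosen with these peak lists known, so nothing is read from these shares either.

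**Figure D4:**
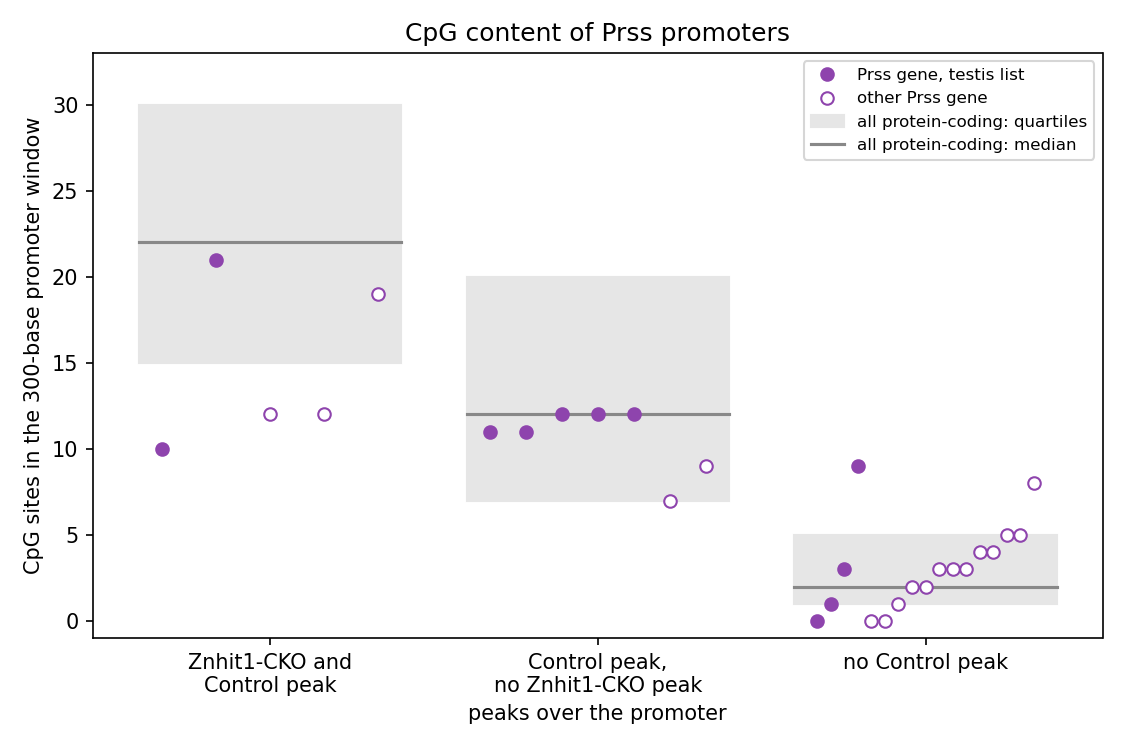
Number of CpG sites in the promoter window of each of 29 Prss genes, by the peaks that lie over the promoter, with testis genes filled. Grey boxes span the quartiles over all protein-coding genes and grey lines their medians (22, 12 and 2), and the 5 testis genes with a Control peak alone sit at 11 or 12.

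The patterns GGCNGTT, TGACGTCA and TGACG were searched on both strands of the same windows. GGCNGTT, the core of the MYB motif, was in 4 of the 5 testis promoters that had a Control peak and no Znhit1-CKO peak. Counted from the start of transcription, it lay at -40 in Prss40 and -34 in Prss39, as GGCAGTT in both. In Prss42 it lay at -192, as GGCTGTT, and in Prss21 at -197 on the other strand. It was absent from the windows of Prss45, Prss41 and Prss50. Prss33, which is not on the testis list and had no boundary peak, held it at -79 on the other strand. In all it was in 5 of the 29 Prss windows, or 17.2%, against 12.2% of all promoters and 14.8% of all with a Control peak alone. TGACGTCA, the full cAMP response element, was in none of the 29 Prss windows and in 2.33% of all. TGACG, which is contained in it, was in 4 Prss windows, none of them of a gene on the testis list, and in 23.8% of all. A match is only a run of letters, and no match concerns only these letters in this window. Shorter or other forms of the MYB motif were not searched.

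Other serine protease and inhibitor genes were counted by symbol. Genes of the Klk, Gzm, Mcpt, Tmprss, Spink and Serpin families, other tryptases and trypsins, and Acr (acrosin, the main acrosomal protease) make 140 genes. Of these, 10.7% had a boundary peak in Znhit1-CKO and 12.1% in Control, and 5 of the 17 with a Control peak had none in Znhit1-CKO. Acr itself had no boundary peak in either list. Among kallikreins, 2 of 26 had one in Znhit1-CKO and 5 in Control, and Klk10 had the widest Control peak among those with none in Znhit1-CKO, at 2057 bp. Tmprss12, a testis protease gene, kept a peak of 535 bp in Znhit1-CKO and 854 bp in Control. Among 63 Serpin genes, whose products inhibit such proteases, 9 had a boundary peak in Znhit1-CKO and 8 in Control.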

How the data were processed

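H2A.Z ChIP-seq was done on testis cells of mice at postnatal day 14, with 8 libraries in 4 groups of 2 (immunoprecipitate and input of Znhit1-CKO and Control). MACS2 2.2.4, Picard 2.20.7, SAMtools 1.9, BWA 0.7.17 and cutadapt 2.5 are listed with build mm10 per the submitters' processing notes. The authors deposited 2 peak lists and 1 list of differential regions, credited to edgeR by its name, each with a chromosome, start and end and no other value. Not given in the sources used here were thresholds, pooling of replicates and the sign of a differential region, and depth cannot be read from the lists.

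Intervals overlapping the 1 kb around either end of a gene were its boundary peaks, and overlap meant at least 1 bp. A group was a run of Prss genes at most 100 kb apart. Coordinates count from 1. Promoters, strand and gene ends came from RefSeq (GRCm38.p6), with the most upstream start taken where a gene has several, and motifs in reverse orientation were sought on the other strand. The planned protein comparison was not made. No test was run, since each genotype has 1 list. Boundary states were checked against bedtools 2.31.1 for 21900 genes, with 0 differences. Every Prss gene is accounted for, and genes with a boundary peak were described in full. Testis promoters were printed in order of each gene's widest Control boundary peak, followed by Prss12. At Prss40 that peak lies at the other end of the gene, and the one over the promoter is 826 bp wide. The genes, the testis list and the motifs were chosen with earlier results of these data known. Alternatives were windows of 500 bp and 2 kb, peaks of at least 500 bp, starts only, stricter and looser overlap, and other group gaps. Python 3.11.15, numpy 2.4.6, pandas 2.3.3 and matplotlib 3.10.9 were used.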

Additional observations from a re-analysis of the deposited data

How the results depend on the processing

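The count of Prss genes with a Znhit1-CKO boundary peak (8) was 13 with a window of 2 kb, where 12 of 24 genes with a Control peak had none in Znhit1-CKO. With peaks of at least 500 bp only, 1 testis gene had a Znhit1-CKO peak in place of 2, because the 369 bp peak of Prss50 dropped out. Counting starts of transcription only, with peaks beside a start included, left 29 genes. Of these, 5 had a peak in Znhit1-CKO, 12 had one in Control and 7 had a Control peak alone. For the testis genes that last count was then 5 in place of 8, among 11 genes with a promoter record. The Znhit1-CKO peaks of Prss50 and Prss38 count here although they do not cover the start. Requiring that no Znhit1-CKO peak overlap the Control peak gave 10 Prss genes in place of 12, since Prss46 and Prss56 dropped out, and 7 testis genes in place of 8. The number of groups was 7 at each gap tried, but their members changed. The groups held 24 genes with a gap of 50 kb, 27 in the main setting and 29 with a gap of 500 kb. With the smaller gap the group of Prss3, Prss1 and Prss2 dissolved, and that from Prss33 to Prss27 split between Prss21 and Prss30. With the larger gap the testis genes Prss37 and Prss58 joined the pancreatic trypsin genes. Requiring an overlap of 50% of both peaks left 7 of the 10 overlaps. No paired analysis was possible because each genotype has a single interval list, which also leaves no replicate to omit. Peaks near the authors' threshold are the least certain, and depth is unknown.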
